A study of Xenopus laevis with 3 samples.

Results

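The genes described here are those of the proteasome and of the ubiquitin system that were spotted on a Xenopus laevis cDNA array. They were taken as every spot whose annotation contained the word proteasome or ubiquitin, in capitals or not. The search found 128 of 21504 spots, which carried 46 different annotations. The spots held 11 of the proteasome core particle, 15 of the regulatory particle, 8 annotated only as proteasome, 6 of ubiquitin itself, 51 of conjugating enzymes, 2 of ligases, 10 of deubiquitinating enzymes and 3 of ubiquitin-like modifiers or their enzymes. The annotations of the other 22 were cut off too early to place them or belonged to none of these groups. Of the 128 spots, 104 passed the filter on dim spots, against 15640 of all spots, and 90 of these had a value on all 6 arrays.

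The study looked for genes expressed in the organs that form from the endoderm of the frog embryo. Endoderm was dissected by hand at stages 30, 39 and 46 and divided into an anterior region, from which lung, stomach, pancreas and liver arise, and a posterior region, from which the intestine arises. No strain, genotype or treatment was given in the labels, and the embryos of all groups were described in the same way. At each stage the anterior cDNA was labelled with Cy5 and the posterior cDNA with Cy3, and the pair was hybridised to 2 arrays, called A and B here. Nothing in the labels tells if A and B came from different dissections. Their spread may be technical, and p-values measure that spread only. No array had the dyes exchanged, so within 1 stage the effects of dye and region on a ratio cannot be told apart. A dye effect that is constant for a probe cancels in the change of a ratio between stages.

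Proteins are marked for destruction by chains of ubiquitin, a small protein made from polyubiquitin genes and from genes that fuse it to a ribosomal protein. Activating, conjugating (E2) and ligase (E3) enzymes pass ubiquitin to the target, and deubiquitinating enzymes take it off again. The marked protein is bound and unfolded by the regulatory particle of the 26S proteasome and is cut inside its barrel-shaped 20S core particle, and this machinery is present in nearly all cells.

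The median intensity of all spots lay between 607 and 2988.5 in the anterior channel and between 807 and 3037 in the posterior channel. Between 39.3% and 62.5% of spots were well above the local background, depending on the array and the dye. Over probes, the correlation of array A with array B was 0.848 at stage 30, 0.947 at stage 39 and 0.935 at stage 46. Of the marker lists for tissues, 14 of 15 endoderm spots passed the filter, and so did 9 of 13 for red blood cells, 35 of 42 for skeletal muscle, 28 of 32 for epidermis, 20 of 35 for connective tissue and 16 of 24 for the nervous system. Whether these signals came from cells other than endoderm was not tested. In such bulk samples, fewer cells of a type and less RNA per cell cannot be told apart.

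Values are log2 ratios of anterior over posterior, ± the standard error of the limma fit (n = 2 arrays), and a probe was called at an adjusted p under 0.05 over all probes tested. At stage 30, 36 of 99 member probes were higher and 21 were lower in anterior endoderm, which is 57.6% called against 56.4% of all probes (28.6% higher and 27.7% lower). At stage 39, 31 of 95 were higher and 39 lower, or 73.7% called against 63.1% of all probes. At stage 46, 24 of 97 were higher and 25 lower, or 50.5% called against 55.6% (30.4% higher and 25.2% lower). Among members, 36.4% were higher and 21.2% lower at stage 30. At stage 39 the lower calls made up 41.1% of the members and 31.7% of all probes, and the higher calls 32.6% and 31.4%. That share moved with the normalization, since median centring in place of loess gave 36 higher and 22 lower calls. Without array A of stage 39 there were 25 lower calls, and without array A or B of stage 46 there were 10 or 15 higher and 10 or 14 lower calls at stage 46.

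**Figure D1:**
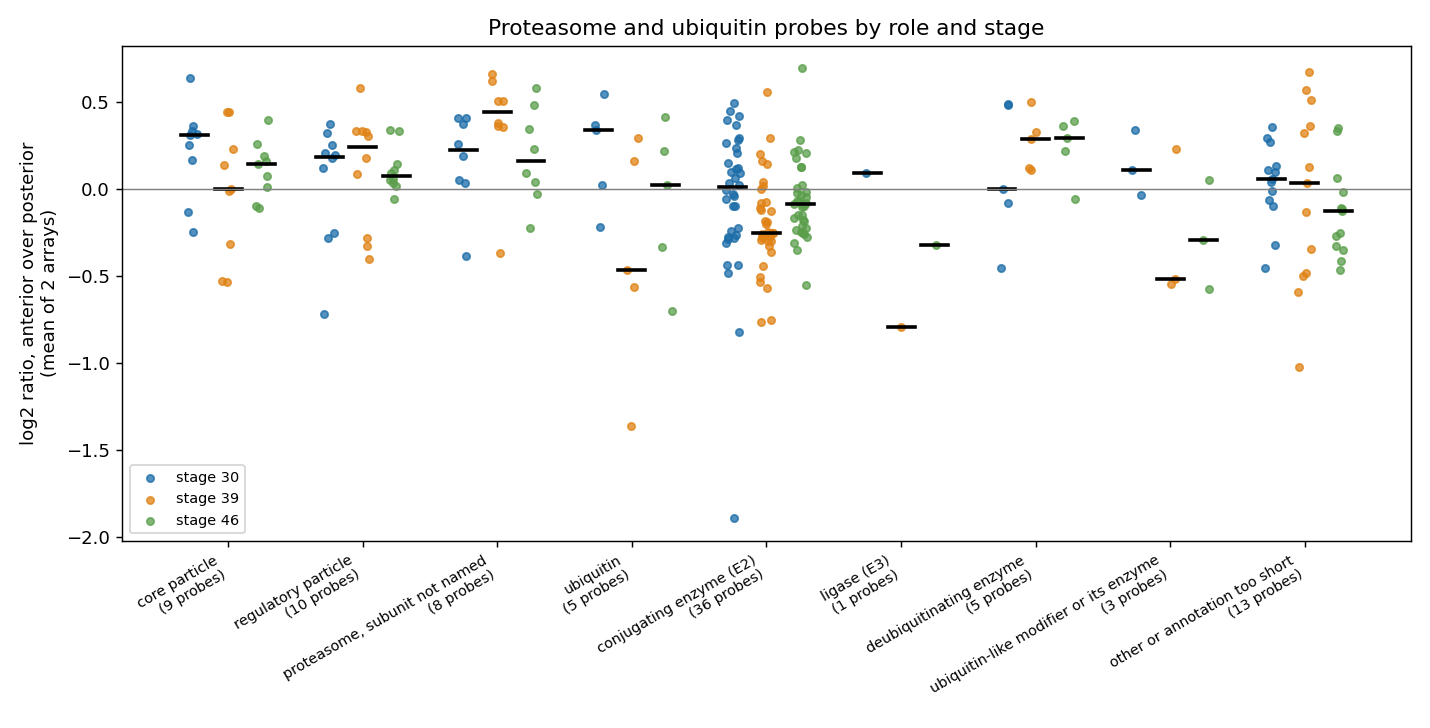
Log2 ratio of anterior over posterior (vertical axis, mean of 2 arrays) of the 90 member probes with a value on all 6 arrays, by role (horizontal axis) and stage (colour). Each point is a probe and each black bar a median. The ubiquitin probes lie above 0 at stage 30 except for 1, and their median is the lowest at stage 39 among the roles with over 3 probes.

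Among roles with over 1 probe, ubiquitin itself showed the widest shift of its median between stages 30 and 39. The median ratio of its probes was 0.27 at stage 30, -0.47 at stage 39 and -0.15 at stage 46, whereas the median over all probes was 0.01, 0.01 and 0.02. Of 6 ubiquitin probes, 4 were higher and none lower at stage 30, against 28.6% and 27.7% of all probes. Of 5 tested at stage 39, 1 was higher and 3 were lower, against 31.4% and 31.7% of all probes. The ratio fell from stage 30 to stage 39 in 3 of 5 probes, while 30.5% of all probes fell in that contrast and 60.0% were called in either direction. The 3 that fell carry ubiquitin alone or polyubiquitin. With only the 3 ubiquitin probes above background in both channels on every array, of which 2 are ribosomal fusions, the median at stage 39 was 0.16.

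The spot annotated simply as ubiquitin, XL0c2d04, had log2 ratios of 0.58 and 0.51 on arrays A and B of stage 30, -0.43 and -0.50 at stage 39, and -0.36 and -0.30 at stage 46. Every array of stage 30 was thus on the anterior side and every later array on the posterior side. The ratio fell by 1.01 ± 0.08 from stage 30 to stage 39 (limma, adjusted p = 4.87e-05) and by 0.88 ± 0.08 from stage 30 to stage 46 (adjusted p = 0.00013). Stages 39 and 46 differed by 0.13 ± 0.08 (adjusted p = 0.193). A second spot of the same annotation, XL0c2d03, read 0.19 and 0.24 at stage 30 and -0.41 and -0.54 at stage 46. It had a value on 1 array of stage 39, which was -0.59, and was not tested there.

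Of the polyubiquitin clones, which encode head-to-tail repeats of ubiquitin, XL085o14 had ratios of 0.45 and 0.23 at stage 30, -0.67 and -0.46 at stage 39, and 0.06 and -0.01 at stage 46. It was 1.26-fold higher in anterior endoderm at stage 30 (adjusted p = 0.00688), a call lost without array A of that stage (adjusted p = 0.075). At stage 39 its anterior signal was not well above background on either array, so its fold is a lower bound (at least 1.48-fold lower). Its own anterior signals lay above the lowest signals called above background on those arrays, so the bound equals the measured fold. Both regions were below that limit at stage 46, so no fold is given.

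The other polyubiquitin clone, XL065n18, whose annotation comes from its 3' read, had ratios of 0.06 and -0.49 at stage 30, -1.55 and -1.17 at stage 39, and -0.71 and -0.69 at stage 46. The arrays of stage 30 disagreed in sign, and all later arrays were on the posterior side. It was not called at stage 30 (-0.22 ± 0.13, adjusted p = 0.196) and was 2.57-fold lower in anterior endoderm at stage 39 (adjusted p = 9.25e-05) and 1.62-fold lower at stage 46 (adjusted p = 0.00321). Its ratio fell by 1.14 ± 0.19 from stage 30 to stage 39 (adjusted p = 0.00134). The rise of 0.66 ± 0.19 from stage 39 to stage 46 (adjusted p = 0.020) was not called without array A of stage 39 or either array of stage 46.

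The clones annotated as fusions of ubiquitin to a ribosomal protein did not fall past the threshold. XL092e24, annotated with ribosomal protein S27, had ratios of 0.48 and 0.26 at stage 30, 0.18 and 0.15 at stage 39, and 0.16 and 0.27 at stage 46, all on the anterior side. Its ratio at stage 39 differed from that at stage 30 by -0.21 ± 0.10 (adjusted p = 0.096), and up to 27% of its pixels were saturated. XL066i16, whose annotation was cut before the ribosomal protein's name, had ratios of -0.10 and 0.16, 0.36 and 0.23, and 0.54 and 0.29 over the stages, and rose by 0.39 ± 0.12 from stage 30 to stage 46 (adjusted p = 0.029). That rise was not called without array A of stage 30 (adjusted p = 0.13) or array A of stage 46 (adjusted p = 0.19). Whether the fusions differ from the other ubiquitin clones was not tested.

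**Figure D2:**
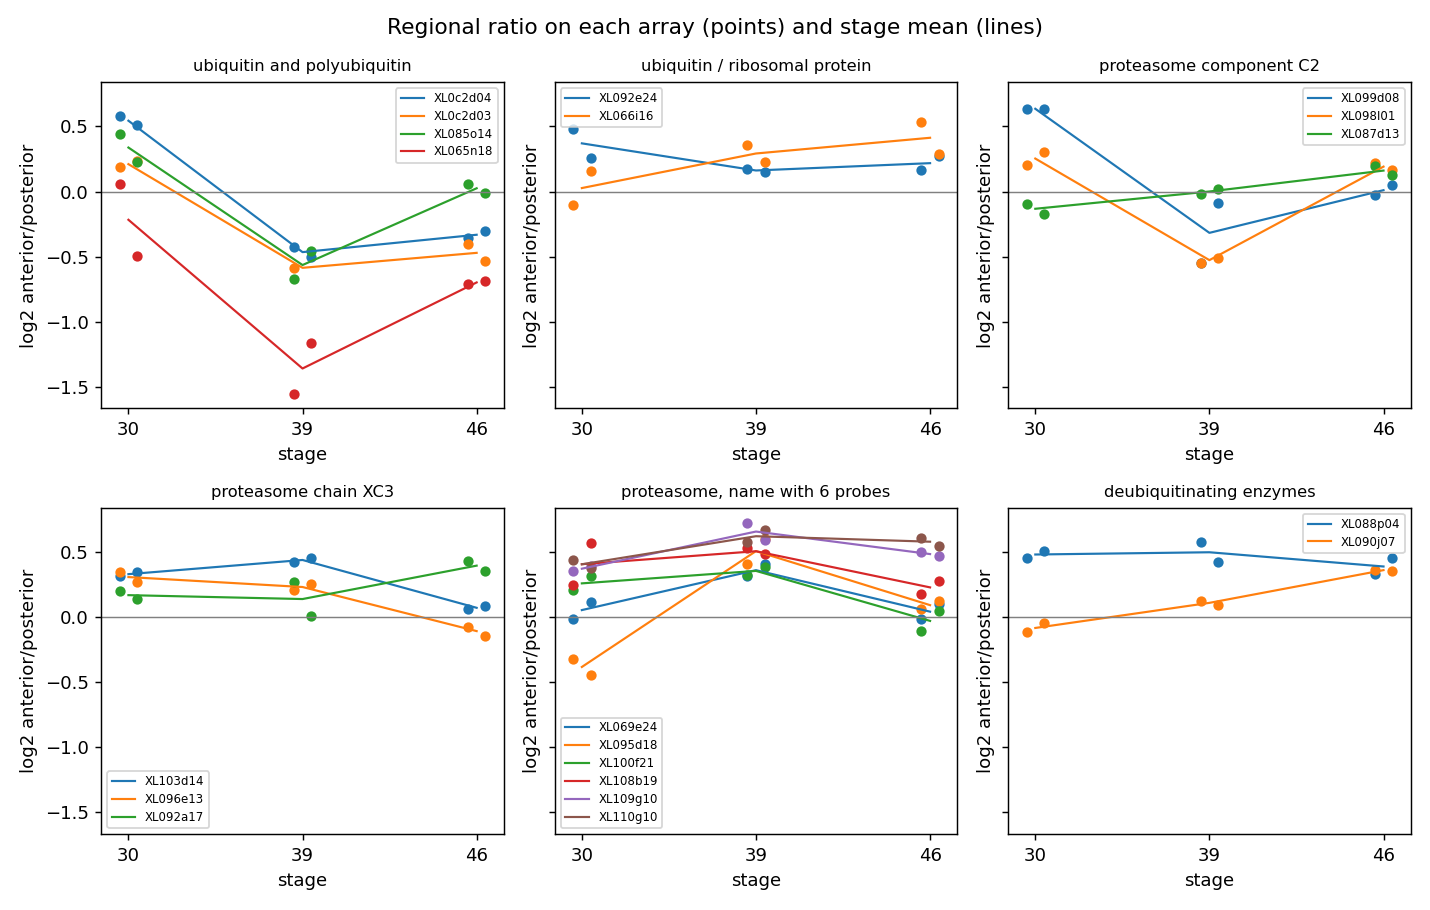
Log2 ratio of anterior over posterior (vertical axis) at stages 30, 39 and 46 (horizontal axis) for the probes of 6 sets of annotations. Points are single arrays and lines join stage means, with 1 array only for XL0c2d03 at stage 39. The ubiquitin and polyubiquitin probes are below 0 at stage 39, and the mean of XL065n18 is below 0 at stage 30 already. The ribosomal fusions and the 6 proteasome probes of one annotation are all above 0 at stage 39.

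The separate channels show the levels behind these ratios, as normalized log2 intensities. For XL0c2d04 the anterior level was 12.90 and 12.65 at stage 30, 11.65 and 11.78 at stage 39, and 12.75 and 12.94 at stage 46. The posterior level was 12.32 and 12.14, then 12.08 and 12.28, then 13.11 and 13.24. The anterior arrays of stage 39 were thus below all others, and the posterior arrays of stage 46 above all others. The anterior level fell by 1.06 ± 0.24 from stage 30 to stage 39 (separate-channel limma fit, adjusted p = 0.018) and rose by 1.13 ± 0.24 from stage 39 to stage 46 (adjusted p = 0.023). The posterior level rose by 0.99 ± 0.24 from stage 39 to stage 46 (adjusted p = 0.035). The fall was not called without either array of stage 39 (adjusted p = 0.14 and 0.093) or of stage 46 (0.053 and 0.054), and both rises were not called without any one array of the stages compared (adjusted p from 0.13 to 0.27).

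For XL065n18 the anterior level was 10.18 and 9.89 at stage 30 and 9.32 and 9.43 at stage 39, while the posterior level went from 10.12 and 10.38 to 10.87 and 10.60. The arrays of these stages did not overlap in either region. The anterior change was -0.66 and the posterior change 0.49 on the log2 scale, and neither was called. The spread of a level between arrays was wider than that of a ratio.

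**Figure D3:**
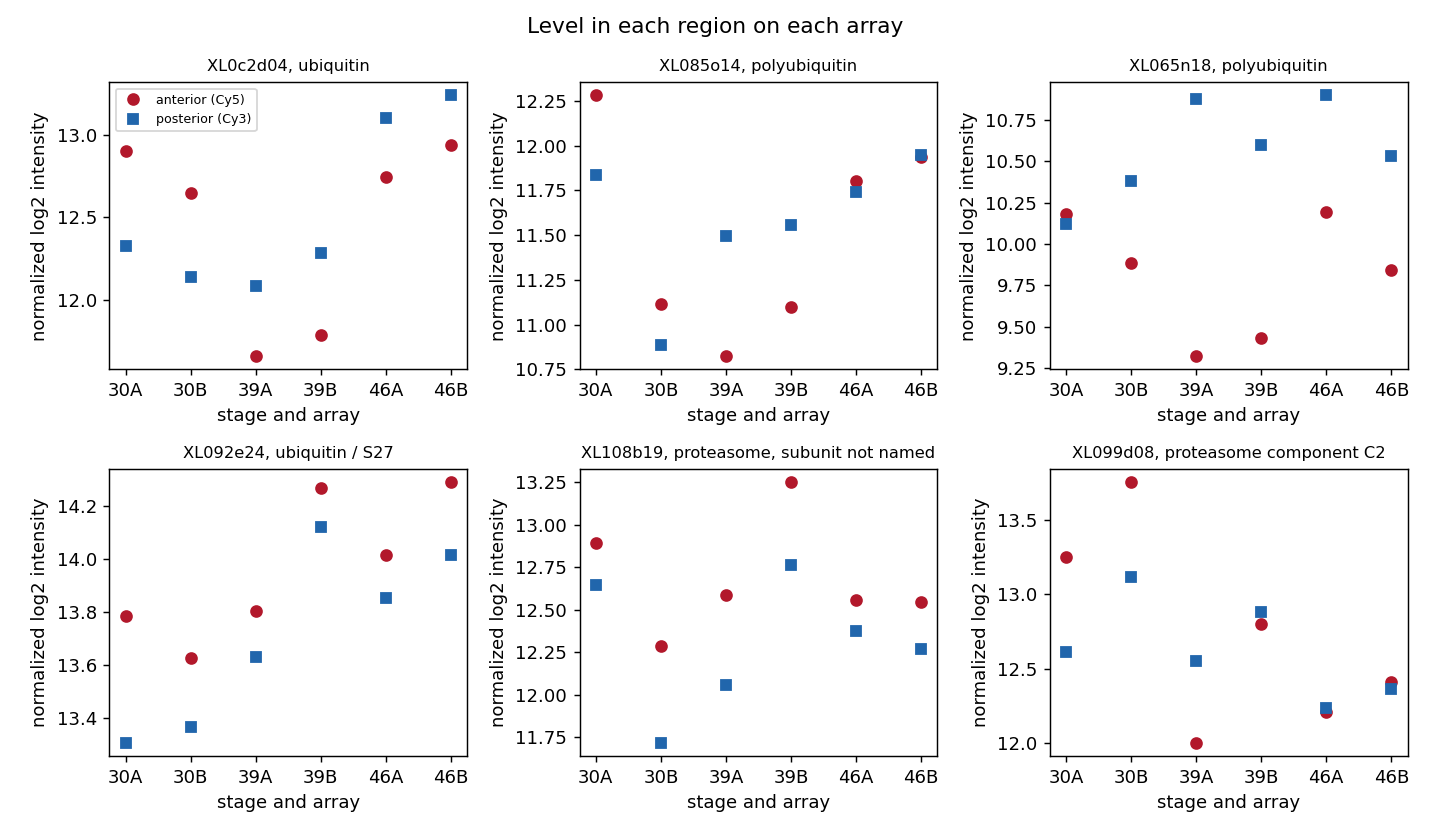
Normalized log2 intensity (vertical axis) of 6 member probes in the anterior (Cy5, circles) and posterior (Cy3, squares) channel of each array (horizontal axis, stage and array letter). For XL0c2d04 the anterior signal is above the posterior signal at stage 30 only, and for XL108b19 it is above on all 6 arrays. Levels of different probes are not comparable.

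Few members were called between stages within a region. In anterior endoderm 1 of 90 was higher and 5 were lower at stage 39 than at stage 30, or 6.67% called against 10.5% of all probes (4.74% higher and 5.80% lower). From stage 39 to 46, 1 was higher and none lower, against 5.01% of all probes called (2.93% and 2.09%), and from stage 30 to 46, 5 were higher and 2 lower, against 14.4% (8.48% and 5.89%). In posterior endoderm 2 were higher and 4 lower from stage 30 to 39 (6.82% of all probes called, 3.49% higher and 3.33% lower), 1 was higher and 1 lower from stage 39 to 46 (5.16%, or 2.63% and 2.53%), and 4 were higher and 3 lower from stage 30 to 46 (11.9%, or 6.30% and 5.61%). Leaving out single arrays moved these counts widely: without array A of stage 30, 14 members were higher in posterior endoderm at stage 46 than at stage 30, and without array A of stage 46, none was. Without array A of stage 30, 12 rather than 1 were higher in anterior and 11 rather than 2 in posterior endoderm at stage 39.

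Members called higher at stage 46 than at stage 30 were 5.56% in anterior and 4.44% in posterior endoderm. The shares of all probes were larger, at 8.48% and 6.30%. Proteasome clones were among the members called higher in both regions. The clone XL107j11, annotated only as proteasome, rose by 1.26 ± 0.29 in anterior endoderm (adjusted p = 0.017) and by 1.10 ± 0.29 in posterior endoderm (adjusted p = 0.032). The clone XL101j22, annotated as 26S proteasome regulatory chain 4, an ATPase of the regulatory particle, rose by 0.86 ± 0.25 and 1.01 ± 0.25 (adjusted p = 0.040 and 0.021). All 4 calls were lost without array B of stage 30 (adjusted p from 0.062 to 0.13) or either array of stage 46, and 3 of them without either array of stage 39. A core particle clone, XL096e13, rose by 1.25 ± 0.29 in posterior endoderm (adjusted p = 0.017), and this call was lost without array A of stage 46.

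Of 9 core particle probes tested at stage 30, 5 were higher and 1 was lower in anterior endoderm, or 55.6% and 11.1% against 28.6% and 27.7% of all probes, and their median ratio was 0.31. At stage 39, 3 were higher and 2 lower, or 33.3% and 22.2% against 31.4% and 31.7% of all probes. At stage 46, 4 were higher and none was lower, or 44.4% and 0% against 30.4% and 25.2%, with a median of 0.14. The median over probes on single arrays was 0.32 and 0.27 at stage 30, 0.02 and 0.02 at stage 39, and 0.13 and 0.13 at stage 46. Several of the 9 probes are clones of component C2 or of chain XC3, so these shares are not those of independent genes. With only the 3 core probes above background in both channels on every array, the median was 0.37 at stage 30 and 0.0102 at stage 46.

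Proteasome component C2, an alpha-type subunit of the core particle in humans, had probes that changed with stage. XL099d08 had ratios of 0.64 and 0.64 at stage 30, -0.55 and -0.08 at stage 39, and -0.03 and 0.05 at stage 46. It was 1.55-fold higher in anterior endoderm at stage 30 (adjusted p = 0.00131), and its ratio fell by 0.95 ± 0.14 to stage 39 (adjusted p = 0.000811). Its lower value at stage 39 (-0.32 ± 0.10, adjusted p = 0.024) was not called without array A of that stage (-0.08) or after median centring (-0.06), and the authors' deposited table, centred on its median, gave 0.0986.

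A second C2 probe, XL098l01, had ratios of 0.20 and 0.30, then -0.55 and -0.51, then 0.22 and 0.16. Its arrays of stage 39 lay apart from the other 4, with a fall of 0.78 ± 0.08 from stage 30 (adjusted p = 0.000145) and a rise of 0.72 ± 0.08 to stage 46 (adjusted p = 0.000311). The third C2 probe, XL087d13, stayed between -0.17 and 0.20 and was called only at stage 46 (0.16 ± 0.06, adjusted p = 0.040) and in the change from stage 30 to stage 46 (0.29 ± 0.08, adjusted p = 0.015). Probes that share this annotation therefore disagreed, and since the annotations were cut at 40 characters, 1 annotation can cover different genes.

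Proteasome chain XC3, a Xenopus alpha-type subunit, was on the anterior side at stages 30 and 39. XL103d14 had ratios of 0.32 and 0.35 at stage 30, 0.43 and 0.45 at stage 39, and 0.06 and 0.08 at stage 46, and its ratio fell by 0.37 ± 0.07 from stage 39 to stage 46 (adjusted p = 0.0048). Its anterior signal was not well above background on either array of stage 30, so the ratio there rests on a dim signal. XL096e13, named from its 3' read, fell by 0.42 ± 0.08 from stage 30 to stage 46 (adjusted p = 0.0034). XL092a17 went the other way, with a ratio of 0.40 ± 0.07 at stage 46 (adjusted p = 0.00265), and the mean over both 5' probes of XC3 did not change from stage 39 to 46 past the threshold (-0.06, adjusted p = 0.59).

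Proteasome subunit alpha type 5, also a core subunit, went from the posterior to the anterior side. XL061d02 had ratios of -0.16 and -0.33 at stage 30, 0.43 and 0.45 at stage 39, and 0.20 and 0.32 at stage 46. No array of stage 30 overlapped the later arrays, and the ratio rose by 0.69 ± 0.09 from stage 30 to stage 39 (adjusted p = 0.000451) and by 0.50 ± 0.09 from stage 30 to stage 46 (adjusted p = 0.00252). Neither region was well above background at stage 30, so these changes start from dim signals and no fold is given for that stage.

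The proteasome beta chain precursor, a beta-type core subunit, was 1.29-fold higher in anterior endoderm at stage 30 (XL106d12, 0.32 and 0.41, adjusted p = 0.00147). It was near 0 at stages 39 and 46, with ratios of -0.06, 0.04, -0.13 and -0.06. Its ratio fell by 0.46 ± 0.08 from stage 30 to stage 46 (adjusted p = 0.0027). The iota chain, an alpha-type subunit, was dim in both regions at stage 39 and had arrays of stage 39 that disagreed (XL086e21, 0.02 and -1.08), and its fall of 0.85 ± 0.29 from stage 30 to stage 39 (adjusted p = 0.037) was lost without any array but array A of stage 39.

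The 8 probes annotated as proteasome with no subunit had the highest medians of the 3 proteasome groups at stages 39 and 46, at 0.45 and 0.16, after 0.23 at stage 30. The core particle was close at stage 46, at 0.14, and was the higher on array A of that stage (0.13 against 0.12). At stage 39, 7 of the probes with no subunit were higher and 1 was lower in anterior endoderm, against 31.4% and 31.7% of all probes. Of these 8 probes, 6 share 1 annotation. Among the 6, 4 were higher and 1 lower at stage 30, against 28.6% and 27.7% of all probes. All 6 were higher at stage 39, and 3 were higher at stage 46, against 30.4% of all probes. The 6 are different clones that may come from 1 gene, so their agreement is not that of independent genes.

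The brightest of the 6, XL108b19, had ratios of 0.25 and 0.57 at stage 30, 0.53 and 0.49 at stage 39, and 0.18 and 0.28 at stage 46, all on the anterior side. It was 1.33-fold higher in anterior endoderm at stage 30 (adjusted p = 0.00375), 1.42-fold at stage 39 (adjusted p = 0.000988) and 1.17-fold at stage 46 (adjusted p = 0.041). The call at stage 46 was lost without any one array of stages 39 and 46. Its probes XL109g10 and XL110g10 were higher at every stage, with ratios of 0.37, 0.66 and 0.49 and of 0.41, 0.62 and 0.58.

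The probe XL095d18 of the same annotation departed from the others. It had ratios of -0.32 and -0.45 at stage 30, 0.41 and 0.60 at stage 39, and 0.06 and 0.12 at stage 46, and rose by 0.89 ± 0.10 from stage 30 to stage 39 (adjusted p = 0.000181). XL107j11, another clone annotated as proteasome, was higher at every stage, with ratios of 0.19, 0.38 and 0.35 (adjusted p = 0.024, 0.000793 and 0.00174). The eighth probe, XL081n18, was lower at stage 39 (-0.48 and -0.24, adjusted p = 0.00654), a call lost without array A of that stage (adjusted p = 0.13).

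Regulatory particle probes had a median of 0.16 at stage 30, 0.30 at stage 39 and 0.05 at stage 46. Of 12 tested at stage 30, 6 were higher and 4 lower, or 50.0% and 33.3% against 28.6% and 27.7% of all probes. Of 11 at stage 39, 7 were higher and 3 lower, or 63.6% and 27.3% against 31.4% and 31.7%. Of 13 at stage 46, 2 were higher and none was lower, or 15.4% and 0% against 30.4% and 25.2%. Without array B of stage 39 the median at that stage was 0.17.

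The steadiest was XL103f18, annotated as a 26S proteasome regulatory subunit, with ratios of 0.27 and 0.37 at stage 30, 0.33 and 0.34 at stage 39, and 0.32 and 0.35 at stage 46. All 6 arrays lay within 0.27 to 0.37, and it was called 1.25-fold, 1.26-fold and 1.26-fold higher (adjusted p = 0.00191, 0.00119 and 0.0016). Other probes with that annotation went the other way at stage 30, where 2 of 6 were higher and 4 lower. At stage 39, 3 of 5 were higher and 2 lower, and the mean over the probes of the annotation was near 0 (0.01, adjusted p = 0.91).

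Among them, XL072k18 had ratios of -0.75 and -0.68 at stage 30, -0.49 and -0.32 at stage 39, and -0.05 and 0.15 at stage 46. Neither region was well above background at stages 30 and 46, so no change between stages is given. The clone XL082g19, annotated as 26S proteasome regulatory chain 1 with the number cut there, was higher in anterior endoderm at stage 39 (0.64 and 0.53, mean 0.58, adjusted p = 8.91e-05). It was near 0 at stage 46 (0.04 and 0.07), a fall of 0.52 ± 0.08 (adjusted p = 0.00131). Of 4 probes of that annotation tested at stage 39, 3 were higher and 1 lower, with ratios from -0.33 to 0.58. Their changes from stage 39 to stage 46 ran from -0.53 to 0.27, with 1 called rising and 2 falling. XL082g19 was named after its values were seen, because a brighter probe stands for the annotation.

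Of 41 conjugating enzyme probes tested at stage 30, 10 were higher and 12 lower in anterior endoderm, with a median of -0.01. These shares, 24.4% and 29.3%, were near the 28.6% and 27.7% of all probes. At stage 39, 4 of 40 were higher and 22 lower, with a median of -0.22, or 10.0% and 55.0% against 31.4% and 31.7% of all probes. At stage 46, 5 of 37 were higher and 12 lower, with a median of -0.09, or 13.5% and 32.4% against 30.4% and 25.2%. From stage 30 to stage 39 the ratio rose in 7 of 39 and fell in 13, or 17.9% and 33.3% against 29.5% and 30.5% of all probes. The falling share was thus near the background and the rising share below it. For conjugating enzymes, ligases and deubiquitinating enzymes as 1 group the median at stage 39 was -0.19, and it was 0.01 after median centring in place of loess.

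The annotation beginning with E2-1 covered 14 clones and that beginning with E2-2 another 14, and each may hold several enzymes whose names share these characters. Several clones may also come from 1 gene, so the shares of conjugating enzyme probes are not those of independent genes. Of the 22 conjugating enzyme probes lower at stage 39, 9 were E2-1 clones. Of the E2-1 clones, 1 was higher and 3 lower at stage 30, none higher and 9 lower at stage 39, and 1 higher and 8 lower at stage 46. Over all probes 28.6% were higher and 27.7% lower at stage 30, 31.4% and 31.7% at stage 39, and 30.4% and 25.2% at stage 46. The ratios of the E2-1 clones ran from -0.48 to 0.24, from -0.33 to 0.14 and from -0.35 to 0.28 at the 3 stages. The brightest, XL098e14, had ratios of -0.05 and 0.04, then -0.27 and -0.28, then -0.25 and -0.25, and up to 30% of its pixels were saturated. Its ratio fell by 0.27 ± 0.08 from stage 30 to stage 39 (adjusted p = 0.017).

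Of 9 E2-2 clones tested at stage 30, 7 were lower and none was higher, against 27.7% lower and 28.6% higher over all probes. At stage 39, 2 of 8 were higher and 3 lower, near the 31.4% and 31.7% of all probes. The brightest, XL101b09, had ratios of -0.43 and -0.44 at stage 30, -0.44 and -0.44 at stage 39, and -0.10 and -0.23 at stage 46. It was on the posterior side on every array, but the call at stage 46 (-0.16 ± 0.06, adjusted p = 0.040) was lost after median centring (-0.03) and the authors' deposited table, centred on its median, gave 0.0443.

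From stage 30 to stage 39 the ratio rose in 6 of 8 E2-2 clones tested and fell in none. Over all probes 29.5% rose and 30.5% fell. The largest of these rises was that of another E2-2 clone, XL076p12. Its ratios were -0.24 and -0.21 at stage 30, 0.70 and 0.42 at stage 39, and 0.63 and 0.75 at stage 46, so no array of stage 30 overlapped the later ones. The ratio rose by 0.78 ± 0.11 from stage 30 to stage 39 (adjusted p = 0.000576). Its level fell by 1.88 ± 0.31 in posterior endoderm (adjusted p = 0.00405) and by 1.10 ± 0.31 in anterior endoderm (adjusted p = 0.045) over the same stages.

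**Figure D4:**
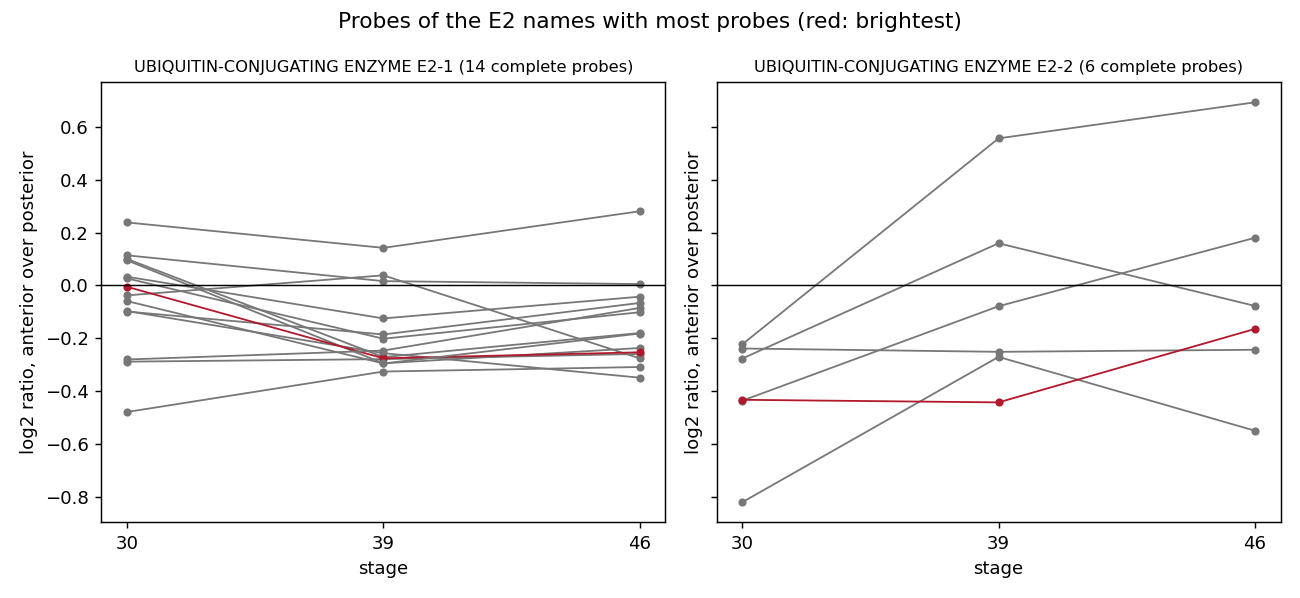
Log2 ratio of anterior over posterior (vertical axis, mean of 2 arrays) at each stage (horizontal axis) for the probes of the annotations beginning with E2-1 (14 probes) and E2-2 (6 probes with a value on all 6 arrays). Each line is a probe and the red line the brightest. Most E2-1 probes lie below 0 at stages 39 and 46, and the E2-2 probes spread from below -0.5 to above 0.6 at stage 46.

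The largest regional ratio of any member was that of XL057g17, annotated as a conjugating enzyme E2 G. Its ratios were -1.93 and -1.85 at stage 30, -0.50 and -0.51 at stage 39, and 0.18 and 0.07 at stage 46. It was 3.71-fold lower in anterior endoderm at stage 30 (adjusted p = 2.3e-06), and neither region was well above background at stage 46. The posterior level was 11.67 and 11.69 at stage 30 and 9.64 and 10.02 at stage 39, a fall of 1.85 ± 0.33 (adjusted p = 0.00613), while the anterior level stayed between 9.04 and 10.11 on all 6 arrays. The other 2 probes of that annotation did not share this ratio, since the highest of the 3 at stage 30 was 0.27. XL057g17 was named after its values were seen, because a brighter probe stands for the annotation.

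A pair of brighter clones annotated as conjugating enzyme, with the rest of the name cut, went from the anterior side at stage 30 to the posterior side at stage 39. XL098n11 had ratios of 0.27 and 0.53, then -0.31 and -0.19, then -0.05 and 0.02, and fell by 0.65 ± 0.11 to stage 39 (adjusted p = 0.0013). Of 4 probes of its annotation tested at stage 30, 2 were higher and none lower, with ratios from -0.31 to 0.40. The mean over the probes of that annotation was 0.11 at stage 30 and was not called (adjusted p = 0.16). XL056j05 had ratios of 0.29 and 0.28, then -0.20 and -0.18, then -0.05 and -0.25, and fell by 0.43 ± 0.09 from stage 30 to stage 46 (adjusted p = 0.00515). Of 5 probes of its annotation tested at stage 39, 1 was higher and 2 lower, with ratios from -0.57 to 0.20. The BIR repeat containing enzyme, whose mammalian form also inhibits cell death, disagreed between its probes. XL085m22 fell from 0.38 and 0.36 at stage 30 to -0.61 and -0.46 at stage 39 (adjusted p = 0.000134), while the brighter XL101k17 stayed between -0.13 and 0.00.

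The single ligase probe that passed the filter, XL090f18, selects targets for ubiquitin by its annotation as a ubiquitin-protein ligase. It had ratios of 0.13 and 0.06 at stage 30, -1.01 and -0.57 at stage 39, and -0.42 and -0.22 at stage 46. The arrays of stage 30 were on the anterior side and all later ones on the posterior side, with a fall of 0.88 ± 0.15 to stage 39 (adjusted p = 0.0014). Up to 32% of its pixels were saturated, and its lower value at stage 46 (adjusted p = 0.032) was not called without either array of that stage (adjusted p = 0.30 and 0.077) or after median centring (adjusted p = 0.20). The clone annotated as ligase E3A did not pass the filter.

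Of 5 deubiquitinating enzyme probes tested, 2 were higher and 1 lower at stage 30, and 3 were higher and none lower at stage 39, or 60.0% higher against 31.4% of all probes. At stage 46, 5 of 6 were higher and none lower, or 83.3% against 30.4%, with 1 probe not called at -0.06, and the medians were 0.00, 0.29 and 0.33. All are annotated as ubiquitin carboxyl-terminal hydrolases, which release ubiquitin from its conjugates.

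XL088p04, a probable hydrolase, had ratios of 0.46 and 0.51 at stage 30, 0.58 and 0.42 at stage 39, and 0.33 and 0.45 at stage 46. All 6 arrays were on the anterior side, with folds of 1.40, 1.41 and 1.31 (adjusted p = 0.000631, 0.000342 and 0.00163). At stage 30 another probe of that annotation was lower, and the mean over its probes was 0.04 (adjusted p = 0.58). XL090j07 had ratios of -0.12 and -0.05, then 0.12 and 0.10, then 0.37 and 0.36, and rose by 0.44 ± 0.08 from stage 30 to stage 46 (adjusted p = 0.00209).

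Ubiquitin-like modifiers such as SUMO are joined to proteins by enzymes of their own. A pair of probes annotated as ubiquitin-like protein SUMO-1 CON, a name cut where that of the SUMO-1 conjugating enzyme would continue, were lower in anterior endoderm at stages 39 and 46. XL077j15 had ratios of 0.08 and -0.14 at stage 30, -0.54 and -0.54 at stage 39, and -0.59 and -0.56 at stage 46, and fell by 0.54 ± 0.09 from stage 30 to stage 46 (adjusted p = 0.00212). Its fall to stage 39 (-0.51 ± 0.09, adjusted p = 0.00221) was not called after median centring (-0.22, adjusted p = 0.098). XL078p01 had ratios of 0.48 and 0.20, then -0.55 and -0.49, then -0.25 and -0.34. The probe of the modifier SMT3A, XL076f23, stayed between -0.03 and 0.31.

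Of the members with short annotations, XL068m06 was cut after the word ubiquitin. Its ratios were 0.24 and -0.01 at stage 30, -1.10 and -0.95 at stage 39, and -0.38 and -0.54 at stage 46, with a fall of 1.14 ± 0.11 to stage 39 (adjusted p = 0.00012). XL105l24, a ubiquitin-binding protein homolog, had ratios of 0.11 and 0.15, then 0.61 and 0.53, then 0.38 and 0.33, and rose by 0.44 ± 0.08 from stage 30 to stage 39 (adjusted p = 0.00207).

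XL093l22, cut after ubiquitin-c, changed sides late. Its ratios were 0.26 and 0.28 at stage 30, 0.50 and 0.52 at stage 39, and -0.34 and -0.36 at stage 46, so no array of stage 46 overlapped the earlier ones. The fall from stage 39 to stage 46 was 0.86 ± 0.07 (adjusted p = 9.79e-05). XL059h19 of the same annotation read 0.17 and -0.06, then 0.72 and 0.62, then -0.31 and -0.20.

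Over the 90 members complete on 6 arrays, 6 were called higher in anterior endoderm at all 3 stages, against 5.35% of all probes. They were XL088p04, XL103f18, XL107j11, XL108b19, XL109g10 and XL110g10, of which 3 share 1 annotation. Another 6 were lower at all 3 stages, against 4.07% of all probes. The turn from higher at stage 30 to lower at stage 39 was made by 11, against 9.47%, and the opposite turn by 7, against 8.26%, so both turns were near the background. Another 6 were called at no stage, against 8.76%. Between stages, 22 of 93 ratios rose and 32 fell from stage 30 to 39 (58.1% called against 60.0% of all probes, 29.5% rising), 18 of 92 rose and 14 fell from stage 39 to 46 (34.8% against 50.2%), and 15 of 93 rose and 28 fell from stage 30 to 46 (46.2% against 53.3%, 28.6% rising). With median centring, 30 rose and 21 fell from stage 30 to 39, and 12 rose and 26 fell from stage 39 to 46. The comparisons of stages share arrays and are not independent.

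Of 31 skeletal muscle marker probes tested, 5 were higher and 22 lower in anterior endoderm at stage 39, where 31.4% of all probes were higher and 31.7% lower. At stage 30, 13 of 28 were higher and 6 lower, against 28.6% and 27.7% of all probes. The summed signal of the 23 complete muscle probes was 37339 and 40822 in anterior and 61556 and 60401 in posterior endoderm at stage 39, against 52738 and 65348 in anterior and 49023 and 64819 in posterior endoderm at stage 30. Of 21 epidermis probes, 3 were higher and 12 lower at stage 39, with a summed signal over 18 probes of 44829 and 42285 in anterior and 63321 and 59534 in posterior endoderm. At stage 30 the epidermis sums were 110124 and 117559 in anterior and 139460 and 154863 in posterior endoderm. By counts the list leaned the other way at stage 30, with 12 of 27 probes higher and 9 lower and a median ratio of 0.16. At stage 39, 5 of 13 endoderm probes were higher and 5 lower, as were 2 and 4 of 8 for red blood cells, 4 and 7 of 17 for connective tissue and 3 and 6 of 15 for the nervous system. Median ratios at stage 39 were -0.41 for endoderm, -0.39 for muscle, -0.38 for red blood cells and -0.31 for epidermis. They were -0.03 for connective tissue and -0.03 for the nervous system. The endoderm sums over 13 probes were 32982 and 35307 in anterior and 43691 and 46976 in posterior endoderm at stage 39. At stage 30 they were 38156 and 36919 in anterior and 32771 and 29318 in posterior endoderm. The part of these tissues in the 3 lower ubiquitin probes at stage 39 was not tested.

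Of 45 other spots of the pathway (cullins, SUMO and NEDD8 enzymes, the COP9 signalosome, antizymes and others), 37 passed the filter. In anterior endoderm 12 of 31 were higher and 8 lower at stage 30, 14 of 36 higher and 10 lower at stage 39, and 9 of 37 higher and 15 lower at stage 46, with medians of 0.08, 0.10 and -0.08. Over all probes 28.6% were higher and 27.7% lower at stage 30, 31.4% and 31.7% at stage 39, and 30.4% and 25.2% at stage 46. Within the pathway list, the largest ratio at stage 30 was that of XL057c10, of the COP9 complex, which regulates cullin ligases, at -0.86 ± 0.07 (adjusted p = 7.46e-05). Other COP9 probes did not share it, since of 5 tested at stage 30, 2 were higher and only XL057c10 was lower. At stage 39, XL057c10 was on the anterior side, at 0.20 ± 0.07 (limma, adjusted p = 0.029).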

How the data were processed

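Anterior and posterior endoderm of 3 stages were compared on 6 cDNA arrays, 2 per stage, in 3 deposited samples. The deposited array files hold linear median pixel intensities of each spot and of its local background, neither subtracted nor normalized, read with GenePix Pro per the labels. Per the labels' protocols the scanner voltage was set for each slide by the first saturated signal. Per the file headers, a percent of saturated pixels and a flag, used here as a score for spots not found, came with each spot. The authors' deposited table holds 1 ratio per probe and stage, condensed from both arrays with GeneData Refiner per the labels. Its medians were 0.975, 0.802 and 0.924, it followed anterior over posterior (r = 0.995, 0.869 and 0.978 with the log2 ratios over probes), and its centring is not given in the sources used here.

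Intensities were corrected with normexp (offset 50) and normalized within arrays by loess (span 0.3, with 239 control spots and spots not found at weight 0) in limma 3.58.1 under R 4.3.3, with version 1.17.8 of data.table. Figures were drawn with Python 3.11.15 and matplotlib 3.10.9. A spot was kept if its median exceeded the background median by 2 background SDs in 1 channel or more on at least 2 arrays. A fit of 1 mean per stage had 3 residual degrees of freedom. Tests were two-sided, with Benjamini-Hochberg adjustment over all probes tested and a threshold of 0.05. Levels came from a separate-channel fit after Aquantile scaling (intraspot correlation 0.952, 11790 probes). The procedure was tested on simulated data. The number of arrays limits the precision.

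Each annotation was represented by its brightest probe on all 6 arrays. Up to 10 annotations per direction and comparison counted as named, among those called with 1 direction on every array. Not every named probe is described in the text, and XL108i04 and XL087c17 are examples of those left out. A class with none gave its largest member, and clones outside this rule were chosen after their values were seen. Members and lists (other pathway genes, and markers of endoderm, red blood cells, muscle, epidermis, connective tissue and the nervous system) were chosen with earlier results of these data known. Alternatives covered background, normalization, filter, probe averaging, the array letter as a block, the authors' table and leaving out each array.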

Additional observations from a re-analysis of the deposited data

Results flagged for a closer look

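The ratio of anterior over posterior differed between stages for 23 of the named probes by a test of the difference itself (limma, Benjamini-Hochberg adjusted p under 0.05). Only probes already past this threshold were listed, so their number is not a result. Among members 58.1% were called from stage 30 to 39, 34.8% from 39 to 46 and 46.2% from 30 to 46. The shares of all probes were 60.0%, 50.2% and 53.3%. From stage 30 to stage 39 the log2 ratio changed by -1.14 for polyubiquitin XL065n18, -1.14 for XL068m06, -1.01 for ubiquitin XL0c2d04, -0.95 for component C2 XL099d08 and -0.90 for polyubiquitin XL085o14. Over the same stages it changed by -0.88 for the ligase XL090f18, -0.85 for the iota chain XL086e21 (dim in both regions at stage 39, and not called in 6 of 13 alternatives), -0.65 for XL098n11 and -0.57 for XL106g23, the last 2 annotated as conjugating enzymes. It rose by 0.82 for XL074f12, whose annotation was cut after ubiquitin s, by 0.69 for alpha type 5 XL061d02 and by 0.44 for the ubiquitin-binding protein homolog XL105l24. XL061d02 was dim in both regions at stage 30, and the anterior signal of XL085o14 was dim at stage 39. For XL074f12 the posterior signal was dim at stage 39, and the mean over the probes of its annotation rose by 0.36 (adjusted p = 0.11).

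From stage 39 to stage 46 the ratio changed by -0.86 for XL093l22, -0.45 for XL069b13, whose annotation was cut after ubiquitin-s, and -0.37 for chain XC3 XL103d14. It rose by 0.28 for the conjugating enzyme E2-2 XL101b09 and by 0.27 for E2 G XL074l20. The call for XL101b09 was lost in 5 of 14 alternatives, with 0.12 after median centring and 0.0357 for the mean over its probes (adjusted p = 0.72). The call for XL074l20 was lost in 6 of 13, with values from 0.18 to 0.50 and adjusted p up to 0.19. The posterior signal of XL074l20 was not well above background on either array of stage 46, so its rise ends on a dim signal.

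From stage 30 to stage 46 the ratio changed by -0.54 for the SUMO-1 CON clone XL077j15, -0.46 for the beta chain XL106d12, -0.43 for the conjugating enzyme XL056j05 and -0.42 for chain XC3 XL096e13. It rose by 0.44 for the hydrolase XL090j07 and by 0.39 for the ribosomal fusion XL066i16.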

How the results depend on the processing

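Counts are given as higher, then lower, and stages compared as 30 to 39. With only the 33 members above background in both channels on all arrays, there were 17 and 5 calls at stage 30, 11 and 11 at stage 39, 11 and 5 at stage 46, 5 and 11 for 30 to 39, 2 and 3 for 39 to 46, and 3 and 7 for 30 to 46. Within anterior endoderm 0 and 1 were called for 30 to 39, and 0 were lower for 30 to 46. Within posterior endoderm 1 and 0 were called for 30 to 39, and 0 were lower for 39 to 46 and for 30 to 46. The medians were then 0.37 for the core particle and 0.37 for ubiquitin at stage 30, 0.20 for the regulatory particle, -0.10 for ubiquitin enzymes and 0.16 for ubiquitin at stage 39, and 0.0102 for the core particle and 0.22 for ubiquitin at stage 46, with fewer probes tested. After median centring 22 were lower at stage 39, 21 for 30 to 39 and 26 for 39 to 46, and within regions 2 were higher in anterior and 1 in posterior endoderm for 30 to 39 and 0 were lower in posterior for 39 to 46. Medians were 0.00902 for enzymes and -0.26 for ubiquitin at stage 39, and -0.0217 and -0.10 at stage 46. After centring array intensity, 3 were higher in anterior endoderm for 30 to 46, and in posterior endoderm 1 for 30 to 39, 0 for 39 to 46 and 1 for 30 to 46. Quantile normalization gave 1 for 30 to 39 in posterior endoderm. Without background subtraction the stage 30 medians were 0.26 for the core and 0.11 for the regulatory particle, and with no filter the stage 39 medians were 0.24 for the regulatory particle and -0.12 for enzymes. In the authors' deposited table, centred here on its median, XL099d08 at stage 39 was 0.0986 and XL101b09 at stage 46 was 0.0443, with reversed sign. As deposited their ratios were 0.859 and 0.953, below 1. Of the other named values in that centred table, 26 moved by more than the spread between arrays and 21 did not. The cause was not tested.

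Leaving out 1 array at a time gave 29 to 36 higher and 17 to 20 lower at stage 30, 22 to 33 and 25 to 40 at stage 39, and 10 to 24 and 10 to 31 at stage 46. For 30 to 39 there were 15 to 24 and 28 to 31, for 39 to 46 8 to 23 and 6 to 18, and for 30 to 46 12 to 14 and 14 to 30. In anterior endoderm these counts were 1 to 12 and 0 to 8, 0 to 2 and 0 to 0, and 1 to 8 and 0 to 3. In posterior endoderm they were 1 to 11 and 2 to 4, 0 to 1 and 0 to 1, and 0 to 14 and 2 to 3. Medians at stage 30 ranged from 0.27 to 0.32 for the core particle, 0.0934 to 0.16 for the regulatory particle and 0.23 to 0.32 for ubiquitin. At stage 39 they ranged from 0.000132 to 0.0222, 0.17 to 0.30 and -0.51 to -0.46, and enzymes at stage 46 from -0.14 to -0.0258. These fits reused the intraspot correlation of all arrays, and a lone array was assumed to vary like the other stages.

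The deviations of A from B correlated over probes at -0.0987, -0.0467 and 0.0339 between stages, so deviations of single probes were little shared over the stages. A correlation cannot show an offset of a letter that is common to all probes. These values cannot tell what A and B stand for, which the labels do not give. With the array letter as a replicate block no count moved by over 1.5 times and 5 of 93 named calls were lost. Averaging the probes of an annotation, run for named values only, lost 14 calls. For annotations with 1 probe the average is that probe. Dim spots, with a region not well above background, and the 3 residual degrees of freedom limit these results.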

Other observations

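Ornithine decarboxylase antizyme, which directs its target enzyme to the proteasome without ubiquitin, was noticed in the pathway list after its values were seen. Of 8 probes, 4 were higher and 1 lower in anterior endoderm at stage 30, 2 were higher and 3 lower at stage 39, and none was higher and 6 lower at stage 46 (limma, adjusted p under 0.05). Over all probes 28.6% were higher and 27.7% lower at stage 30, 31.4% and 31.7% at stage 39, and 30.4% and 25.2% at stage 46. The clone XL109f10 had log2 ratios of 0.37, -0.10 and -0.75, a fall of 1.13 ± 0.13 from stage 30 to stage 46 (adjusted p = 0.000409). XL105n18 had 0.20, -0.26 and -0.68, a fall of 0.88 ± 0.08 (adjusted p = 0.000143). XL110c08 departed from these, with 0.00, 0.56 and 0.06. The antizyme annotations are of different forms, in capitals for XL110c08 and in lower case for XL109f10 and XL105n18. The probes may still come from few genes.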
